A study of Mus musculus with 5 samples.

Results

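Cycling leukocytes of the atherosclerotic mouse aortic arch were defined in single-cell RNA sequencing as cells with a transcript of Ptprc (CD45, the common leukocyte phosphatase) or Tyrobp (the DAP12 adaptor of myeloid and natural killer cells) and transcripts of at least 3 of the 5 proliferation genes Mki67, Top2a, Birc5, Ube2c and Cenpf. Of 18260 cells, 138 met the rule. The Apoe-/- libraries held 13 and 9 of them among 4078 and 4338 cells. Those labelled Oasl1-/-Apoe-/- held 46, 31 and 39 among 3404, 3212 and 3228 cells. Each cell was assigned a lineage by C1qa above 2 on the natural log scale (macrophage), a transcript of Cd3e or Cd3g (T cell), or H2-Ab1 above 2 with a transcript of Flt3 or Cd209a (dendritic cell). The cells were thus selected on the measured values of these genes, which are given below as a description.

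Live cells from the arch were compared between mice lacking Apoe alone, whose genotype is given as Oasl1+/+Apoe-/-, and mice labelled Oasl1-/-Apoe-/-, so every animal carried the Apoe deletion and developed plaques. All mice had eaten normal chow for 28 weeks, and arches of 6 mice were pooled. The comparison asks how loss of Oasl1, an interferon-induced member of the oligoadenylate synthetase family that restrains translation of Irf7, alters the cells of the plaque. There were 2 Apoe-/- libraries and 3 labelled Oasl1-/-Apoe-/-. The labels do not say whether libraries of a group came from separate pools of mice, so p-values measure the spread between these libraries, which may be technical. Oasl1 itself was listed at 0 unique molecular identifiers (UMIs, counted transcripts) in the 22 cycling cells of the Apoe-/- libraries, which allows a share of up to 13.6% of cells with a UMI. Those labelled Oasl1-/-Apoe-/- held 9, 5 and 16 Oasl1 UMIs in 8, 4 and 8 cycling cells. Among the other leukocytes, 31 of 1580 cells of the Apoe-/- libraries and 523 of 3452 of the libraries labelled Oasl1-/-Apoe-/- had an Oasl1 UMI. Per the study's methods the knockout removed the promoter region and the second exon, whereas the transcripts were read from the 3′ end. A 3′ tag does not read the deleted bases, so a UMI does not show an intact gene. Loss of the promoter region could lower 3′ tags too, yet Oasl1 UMIs were more frequent under the label Oasl1-/-Apoe-/-. The reason was not tested. The genotype is therefore written as labelled throughout.

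A dividing cell first copies its DNA in S phase and then separates the copies in mitosis, and each step calls up its own genes. Replication genes such as Mcm2 to Mcm7 and Pcna are under control of E2F factors, whereas mitotic genes are held back in resting cells by the DREAM complex, which binds the cell cycle homology region of their promoters, often together with CCAAT boxes bound by NF-Y. In plaques, macrophages are replenished both by recruited monocytes and by local division, and T cells can divide after meeting antigen.

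The 5 genes of the rule mark the later steps of this programme. Mki67 (ENSMUSG00000031004, GRCm38 chr7:135689784-135716361) encodes Ki-67, the coat of mitotic chromosomes. Top2a (ENSMUSG00000020914, chr11:98992943-99024189) is the topoisomerase that untangles sister DNA, Birc5 (ENSMUSG00000017716, chr11:117849251-117855743) is survivin of the chromosomal passenger complex, Ube2c (ENSMUSG00000001403, chr2:164769898-164778822) is the ubiquitin-conjugating enzyme of the anaphase-promoting complex, and Cenpf (ENSMUSG00000026605, chr1:189640606-189688086) is a kinetochore protein. The 200 bases before the start of each gene are shown so that the letters of the mitotic programme can be looked for in each. They come from RefSeq (GRCm38.p6), read 5′ to 3′ on the strand of the gene, and capitals mark TTTGAA, the core of the cell cycle homology region, and CCAAT, each on either strand.
Mki67 (chr7:135716380-135716579, minus strand): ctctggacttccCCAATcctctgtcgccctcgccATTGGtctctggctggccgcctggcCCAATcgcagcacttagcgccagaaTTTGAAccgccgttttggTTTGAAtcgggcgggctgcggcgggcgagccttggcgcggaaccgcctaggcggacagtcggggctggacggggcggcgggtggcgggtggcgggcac
Top2a (chr11:99024190-99024389, minus strand): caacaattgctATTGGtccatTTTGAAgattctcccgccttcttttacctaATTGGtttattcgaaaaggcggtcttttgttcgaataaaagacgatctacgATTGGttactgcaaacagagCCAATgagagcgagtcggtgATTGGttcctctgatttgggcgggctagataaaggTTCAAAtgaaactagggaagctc
Birc5 (chr11:117849037-117849236, plus strand): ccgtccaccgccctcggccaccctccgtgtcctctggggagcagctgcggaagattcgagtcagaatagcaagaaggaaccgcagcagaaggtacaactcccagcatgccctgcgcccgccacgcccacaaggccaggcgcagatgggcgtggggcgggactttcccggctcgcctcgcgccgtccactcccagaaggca
Ube2c (chr2:164769729-164769928, plus strand): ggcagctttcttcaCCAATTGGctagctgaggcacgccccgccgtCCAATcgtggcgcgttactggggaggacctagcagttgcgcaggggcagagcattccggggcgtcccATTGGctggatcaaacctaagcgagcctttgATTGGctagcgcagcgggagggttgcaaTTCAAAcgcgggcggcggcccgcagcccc
Cenpf (chr1:189688087-189688286, minus strand): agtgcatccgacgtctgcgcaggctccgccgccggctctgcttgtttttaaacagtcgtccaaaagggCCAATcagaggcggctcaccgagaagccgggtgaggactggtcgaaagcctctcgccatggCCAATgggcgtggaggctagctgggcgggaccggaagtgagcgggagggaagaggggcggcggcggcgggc

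In the window from 250 bases before to 50 after the start, 4 of these 5 promoters held both motifs, and in Cenpf the TTTGAA begins at base 3 after the start and so lies outside the sequence shown. The Birc5 promoter held neither set of letters in this window. In Ube2c the first pair of CCAAT matches lie on opposite strands and overlap. Of all 32851 RefSeq mouse promoters of the same length, 17.9% held TTTGAA, 37.4% held CCAAT and 6.95% held both. Of 37 mitosis genes 32 had a promoter in the RefSeq table, and of their 33 promoters 25 (75.8%) held TTTGAA and 21 (63.6%) held both. Of 35 replication genes 27 had one, and of their 32 promoters 5 (15.6%) held TTTGAA and 4 (12.5%) held both, while 12 (37.5%) held GCGGGAA, a form of the E2F motif found in 4.60% of all promoters. The mitosis promoters thus held TTTGAA at several times its share among all promoters, and the replication promoters held it at about that share. These counts describe letters in the reference, not binding.

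The rule's genes were found at unequal shares in the 138 cells. Birc5 had a UMI in 133 cells (96.4%), Ube2c in 115 (83.3%), Top2a in 114 (82.6%), Mki67 in 107 (77.5%) and Cenpf in 72 (52.2%). Birc5 was at a mean of 5.32 and 7.21 UMIs per 10000 UMIs of the cell (CP10K) in the Apoe-/- libraries and 5.69, 6.61 and 6.82 in the libraries labelled Oasl1-/-Apoe-/-. Mki67 was at a mean of 1.49 and 2.24 against 1.41, 1.80 and 1.58 CP10K. The levels of both genes overlapped between the groups. Among the other leukocytes, Birc5 had a UMI in 1.89% of cells, Top2a in 2.07%, Ube2c in 1.57%, Mki67 in 1.23% and Cenpf in 0.179%. Of the 138 cells, 51 held exactly 3 of the 5 genes, 47 held 4 and 40 held all 5. The 51 cells just inside the rule held a median of 8 UMIs of the 5 genes, and the 57 leukocytes just outside it, with exactly 2 of the genes, held 3. The leukocyte part of the rule was met by both genes in 88 cells, by Tyrobp alone in 42 and by Ptprc alone in 8.

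Cycling cells were the deeper cells of the data. Their median was 9490.5 UMIs and 2592 genes per cell, against 4784.5 UMIs and 1577.5 genes in the 5032 other leukocytes. Their lowest cell had 2111 UMIs, and the cycling cells of one library summed to between 84501 and 429100 UMIs. The share of mitochondrial UMIs was alike, with medians of 2.05% and 2.10%. The libraries held 16959976 to 19813039 UMIs each. Among all cells, 165 barcodes occurred in more than one library, 3 cycling cells carried such a barcode, and no barcode was shared between cycling cells of different libraries. Of the 138 cells, 19 (1 and 3 in the Apoe-/- libraries, and 7, 6 and 2 in those labelled Oasl1-/-Apoe-/-) also held at least 2 UMIs in each of at least 2 stromal marker genes, and 9 met the leukocyte part of the rule by a single UMI. Doublets had been removed by the authors before deposit, and no further removal was made.

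Most cycling cells were macrophages. By the lineage rules 102 were macrophages alone, 9 were T cells alone, 6 were dendritic cells, 4 met both the macrophage and the T cell rule, and 17 met none. The 102 macrophages also carried markers that the rule did not use. C1qb and C1qc, partners of C1qa in complement component C1q, had a UMI in all 102, Cd68 in 100, Adgre1 (F4/80) in 91, and Csf1r, the receptor for the macrophage growth factor M-CSF, in 87. The tissue-resident marker Lyve1 had no UMI in these cells, Pf4 had one in 43 and Folr2 in 26, and the recruited monocyte genes Ccr2 and Ly6c2 had one in 11 and 3. The smooth muscle actin gene Acta2 had a UMI in 51 of the 102. The mast cell markers Cpa3 and Cma1, the only 2 of the 6 mast cell and basophil markers in the table, were at 0 UMIs in all 138 cells, and neutrophil markers summed to at most 0.311 CP10K in any library.

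The 9 cycling T cells were of the CD8 type. Cd8a and Cd8b1, the chains of the CD8 coreceptor, had a UMI in 9 of 9 cells, with 41 and 80 UMIs in all, and Cd4 and the gamma delta constant gene Trdc had none. Nkg7, a cytotoxic granule protein, was found in 9 cells with 280 UMIs, the granzyme gene Gzmb in 8 cells with 49 UMIs, and the chemokine gene Xcl1 in 6. The perforin gene Prf1 and the granzyme gene Gzma were each found in 3 cells. C1qa had 1 UMI in 1 of these cells. In the 4 cells that met both rules, C1qa, C1qb, C1qc and Csf1r were found in 4, Cd3e in 3, Cd3d and Cd3g in 1 each, and Cd8a in none, so the T cell rule was met there by few genes.

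Genes of the cross-presenting type were found in part of the 6 dendritic cells. Batf3, a transcription factor that this type needs, had a UMI in 5, Flt3 in 5, Itgae (CD103) in 4 and Irf8 in 4. The receptor genes Xcr1 and Clec9a had one in 3 cells each, with 7 and 4 UMIs. Cd209a was found in 2 cells with 21 UMIs, Klrd1 in 3, and Zbtb46 and Itgax in 2 each. Ccr7, the receptor for migration to lymph nodes, was found in 1. Irf4, Fscn1 and Siglech were at 0 UMIs. Flt3 and Cd209a were part of the rule. All 6 came from libraries labelled Oasl1-/-Apoe-/-, with 5 in replicate 2 and 1 in replicate 3. Of the 17 cells with no lineage, at least 3 markers of one type and more than of any other were dendritic in 4 cells, fibroblast in 4, smooth muscle in 2, and natural killer, endothelial, macrophage and monocyte in 1 each, and 3 were undecided. The cell with natural killer markers held 7 of the 9 and came from Apoe-/- replicate 2.

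Cycling leukocytes took a larger share of the cells in each library labelled Oasl1-/-Apoe-/- than in either Apoe-/- library. They were 0.319% (Wilson 95% interval 0.186 to 0.545%) and 0.207% (0.109 to 0.394%) of all cells in the Apoe-/- libraries, and 1.35% (1.01 to 1.80%), 0.965% (0.681 to 1.37%) and 1.21% (0.885 to 1.65%) in the libraries labelled Oasl1-/-Apoe-/-. The groups did not overlap. The means were 0.263% ± 0.0787 (SD, n = 2) and 1.17% ± 0.195 (SD, n = 3), a ratio of 4.47, with a two-sided exact permutation p of 0.1, the smallest that 2 libraries against 3 allow (adjusted p = 0.3 over 9 share comparisons, Benjamini-Hochberg). No share can therefore pass 0.05 in this design. Intervals cover counting error only, and leukocytes as a whole were 806 of 4078 and 796 of 4338 cells against 1233 of 3404, 1149 of 3212 and 1186 of 3228.

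Within leukocytes the gap was smaller. Cycling cells were 1.61% and 1.13% of the leukocytes in the Apoe-/- libraries and 3.73%, 2.70% and 3.29% in those labelled Oasl1-/-Apoe-/-. Again no library of one group reached the other. The means of 1.37% ± 0.341 (SD, n = 2) and 3.24% ± 0.518 (SD, n = 3) gave a ratio of 2.36 (exact permutation p = 0.1, adjusted p = 0.3). Among macrophages, 10 of 408 and 6 of 398 cells cycled in the Apoe-/- libraries (2.45% and 1.51%), and 37 of 755, 22 of 692 and 31 of 731 in those labelled Oasl1-/-Apoe-/- (4.90%, 3.18% and 4.24%). These groups did not overlap either, and the ratio of the means was 2.07 (exact permutation p = 0.2, adjusted p = 0.45).

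Cycling T cells and dendritic cells were too few to rank the groups. Among T cells 3 of 47 and 1 of 42 cycled in the Apoe-/- libraries (6.38% and 2.38%) and 3 of 91, 2 of 87 and 4 of 83 in those labelled Oasl1-/-Apoe-/- (3.30%, 2.30% and 4.82%). The groups overlapped (exact permutation p = 0.6, adjusted p = 0.7), and without Apoe-/- replicate 1 the difference of the means turned from -0.910 to 1.09 percentage points. No dendritic cell cycled among 49 and 67 in the Apoe-/- libraries, or 0 of 116 together, which allows a share of up to 2.59%. The libraries labelled Oasl1-/-Apoe-/- held 0 of 60, 5 of 42 (11.9%, Wilson interval 5.19 to 25.0%) and 1 of 59 (1.69%). One library held nearly all cycling dendritic cells, and the difference of the means fell from 4.53 to 0.847 percentage points without it (exact permutation p = 0.7 with it).

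The make-up of the cycling cells was similar in both groups for macrophages. They were 76.9% and 66.7% of the cycling cells in the Apoe-/- libraries and 80.4%, 71.0% and 79.5% in those labelled Oasl1-/-Apoe-/-, with overlapping groups (exact permutation p = 0.5, adjusted p = 0.7). T cells were 23.1% and 11.1% against 6.52%, 6.45% and 10.3% of the cycling cells. These shares did not overlap (exact permutation p = 0.1, adjusted p = 0.3), and they rest on 4 and 9 cells.

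**Figure D1:**
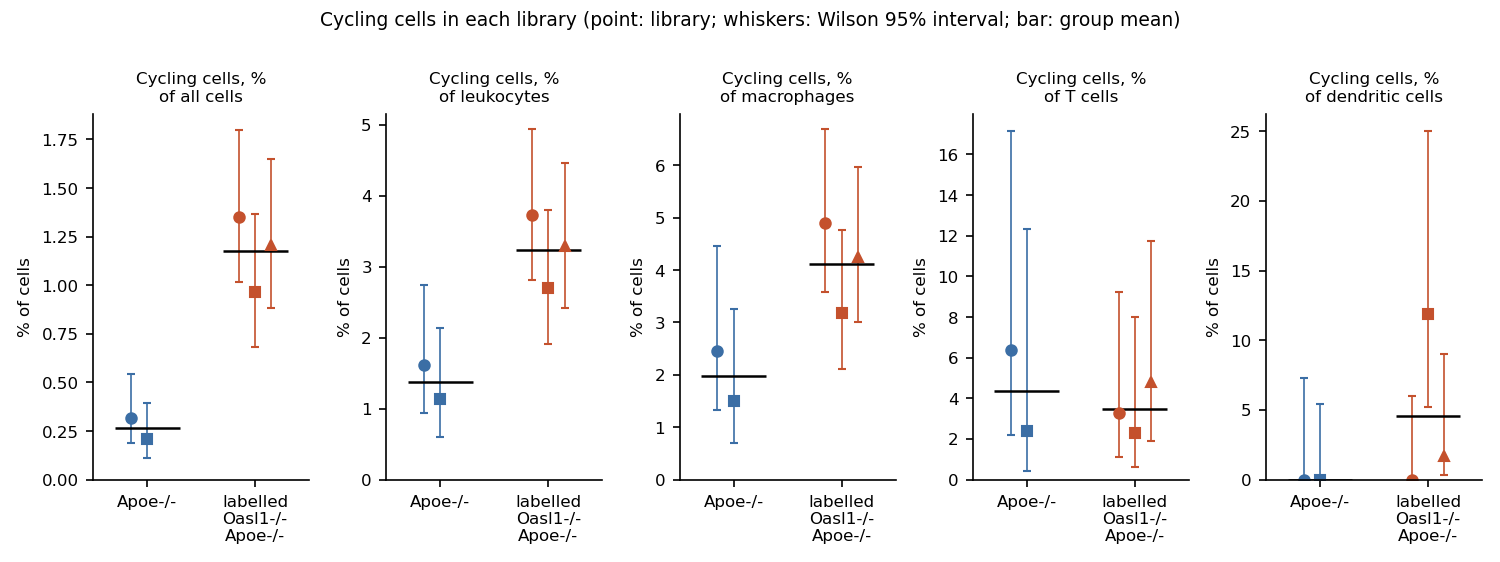
Cycling cells as a percentage of all cells, of leukocytes, of macrophages, of T cells and of dendritic cells, with 1 point per library (circle, square and triangle for replicates 1, 2 and 3, blue for Apoe-/-, orange for the label Oasl1-/-Apoe-/-), Wilson 95% intervals as whiskers and the group mean as a bar. The 3 orange points lie above both blue points in the first 3 panels, and the groups overlap in the panels of T cells and dendritic cells.

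Among cells high in Myh11, a smooth muscle gene, 3 of 5653 cells of the Apoe-/- libraries (0.0531%) and 7 of 4527 of those labelled Oasl1-/-Apoe-/- (0.155%) held at least 3 of the 5 cycle genes, at median depths of 4822 and 5131 UMIs. Both are below the shares among leukocytes. However, 1 of the 3 and 5 of the 7 were themselves cycling leukocytes by the rule, so these shares are no independent level of stray RNA. Ptprc or Tyrobp was found in 3.54% and 6.69% of the Myh11-high cells. A rule on several genes is also met more often in deeper cells, so every cell was thinned to 2000 UMIs, which left out 801 and 1068 shallower cells and no cycling cell. After thinning, cycling leukocytes were 0.0737% of all cells in the Apoe-/- group and 0.380% in the group labelled Oasl1-/-Apoe-/-. The direction was the same at 1000 UMIs, at 0.0261% and 0.105%. Outside the rule, 53 cells held at least 3 of the cycle genes without Ptprc or Tyrobp (4 and 6 in the Apoe-/- libraries, and 16, 8 and 19 in those labelled Oasl1-/-Apoe-/-).

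Replication and mitosis genes were both at higher summed levels in the cycling cells than in other leukocytes, mitosis genes by the wider margin. The 35 replication genes summed to a median of 20.04 CP10K per cycling cell and the 37 mitosis genes to 42.8 CP10K, against 2.67 and 1.99 CP10K in the other leukocytes. In 36 of the 138 cells (26.1%) the replication sum exceeded the mitosis sum. No cycling cell was at 0 for mitosis, and 3 were at 0 for replication. Since the rule asks for mitotic genes, it favours this end of the cycle: the replication sum was the larger in 20 of 51 cells with 3 of the rule's genes, in 13 of 47 with 4, and in 3 of 40 with all 5.

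Along the libraries, replication was the larger sum in 5 of 13 and 0 of 9 cells of the Apoe-/- group and in 15 of 46, 7 of 31 and 9 of 39 cells of the group labelled Oasl1-/-Apoe-/-. Apoe-/- replicate 2 stood apart from the rest, with median sums of 10.3 CP10K for replication and 69.7 CP10K for mitosis, where the other 4 libraries lay between 15.7 and 23.7 CP10K and between 38.7 and 60.9 CP10K. By lineage, replication was the larger sum in 25 of 102 macrophages, 3 of 9 T cells and 2 of 6 dendritic cells. Over the 138 cells the sums were inversely related, with Spearman's rho of -0.353 and Pearson's r of -0.334, a description over cells that share libraries and depth.

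**Figure D2:**
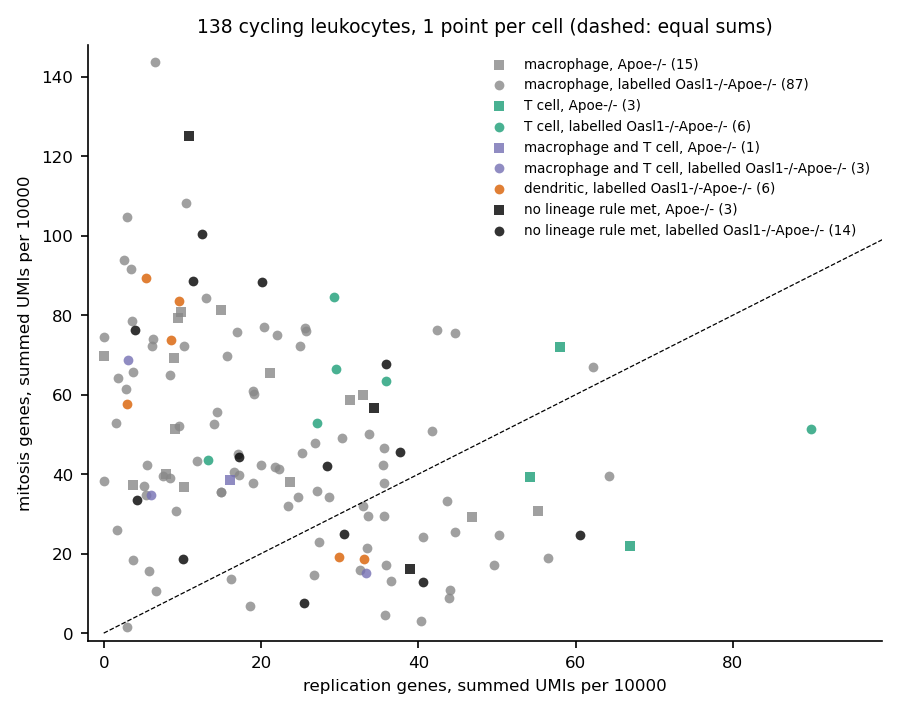
Summed replication genes (horizontal) against summed mitosis genes (vertical), in UMIs per 10000, for each of the 138 cycling leukocytes. Colour gives the lineage rule met, squares are cells of the Apoe-/- libraries and circles those of the libraries labelled Oasl1-/-Apoe-/-, and 36 cells lie below the dashed line of equal sums.

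Beyond the genes of the rule, the genes that set cycling cells apart most evenly across libraries belonged to the spindle, to chromosome condensation and to DNA replication. Stmn1, which encodes the microtubule-destabilising protein stathmin, led, at 18.0 CP10K against 0.677 CP10K in other leukocytes, with log2 ratios of library means between 3.85 and 4.67 and a UMI in 99.3% against 14.5% of cells. Pclaf, the PCNA clamp-associated factor of replication forks, followed with ratios of 3.69 to 4.14 and a UMI in 79.0% against 1.69% of cells. Then came Cdca3, a trigger of mitotic entry (3.31 to 4.43), Cdca8, the borealin subunit of the chromosomal passenger complex that also holds Birc5 (2.98 to 3.50), and Cks1b, a cyclin-dependent kinase subunit (2.96 to 3.41). The tubulin genes Tubb5 (2.72 to 3.03) and Tuba1b (2.71 to 2.88) were also present in most other leukocytes, in 63.6% and 53.9% of cells, whereas the cyclin genes Ccna2 (2.63 to 3.42) and Ccnb2 (2.48 to 3.92) were found in 0.795% and 1.29% of them. The remaining leading genes were Smc4 of condensin, the chromatin protein gene Hmgb2, the thymidine kinase Tk1, the mitotic kinase Cdk1, the spindle protein gene Nusap1 and the histone chaperone Asf1b, whose lowest ratios lay between 2.33 and 2.45. These genes were measured in the cells that the rule chose, so the ratios carry no test.

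By list, 10 of 10 replication genes, 15 of 16 mitosis genes and 15 of 16 chromatin and tubulin genes with an average of at least 0.5 CP10K were higher in cycling cells than in other leukocytes in all 5 libraries, against 24.4% of all 2589 such genes. The median log2 ratios were 1.81, 2.69 and 2.003, against 0.06 over all genes. The average was taken over the cycling cells and the other leukocytes. Genes low in the other leukocytes could thus enter only through the cycling cells, and these counts and medians are a description. The mitosis gene without an even direction was Pttg1, which encodes securin. Of 9 genes that brake the cycle, 2 were higher and 3 lower in all 5 libraries (14.4% of all genes were lower). Cdkn2c, which encodes the kinase inhibitor p18, was at a mean log2 ratio of 2.01, Cdkn2d, which encodes p19, at 1.54, and Cdkn1a, which encodes p21, at -0.11. Braking genes were thus not uniformly low in the cells that cycled.

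Cycling macrophages held less of the foam cell programme than the macrophages that did not cycle. Of 16 foam cell and lipid genes, 11 were lower in the cycling macrophages in all 5 libraries and 1, the cholesterol exporter gene Abcg1, was higher, where 11.2% of all 2492 genes were lower and 21.1% higher. The median log2 ratio was -0.58, against 0.07 over all genes. Gpnmb, a lysosomal glycoprotein of lipid-laden macrophages, was at 4.17 and 3.11 CP10K in cycling macrophages of the Apoe-/- libraries, where the other macrophages had 19.2 and 19.98. In the libraries labelled Oasl1-/-Apoe-/- it was at 2.79, 3.69 and 3.68 CP10K in cycling macrophages and 9.50, 8.50 and 9.18 in the others. The cycling cells were lower in each library, and the mean log2 ratio was -1.76.

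The fatty acid binding protein gene Fabp5 behaved alike, at 14.2 and 8.44 CP10K against 47.8 and 55.8 in the Apoe-/- libraries, and at 4.82, 2.08 and 4.66 against 16.5, 14.8 and 15.6 in those labelled Oasl1-/-Apoe-/-. The tetraspanin gene Cd63, at a mean log2 ratio of -0.93, and the lysosomal protease gene Ctsd, at -0.73, were lower to a smaller degree, as were Lpl (lipoprotein lipase, -0.65), Trem2 (a lipid-sensing receptor, -0.47) and Plin2 (the lipid droplet coat, -0.46). Spp1, which encodes osteopontin, had no even direction, at 108 and 2.77 CP10K in the cycling macrophages of the Apoe-/- libraries and 27.1, 16.6 and 58.2 in those labelled Oasl1-/-Apoe-/-. The growth factor gene Igf1 (-1.05) and the cytokine receptor gene Csf2rb (-0.64) were also at lower levels, whereas Csf1r was at 0.02. Cycling macrophages were deeper than the others, with medians of 9784 and 5328.5 UMIs, and the part of this in the ratios was not tested.

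Complement, interferon and MHC genes differed little between the cycling and the other macrophages. C1qa, C1qb and C1qc were at mean log2 ratios of -0.28, -0.19 and -0.18 and lower in all 5 libraries. Both sets of macrophages were chosen by C1qa, so its ratio is only a description of cells cut on that gene. No gene of the 15 type I interferon genes was higher or lower in all 5 libraries. Of 13 MHC genes 3 were higher (H2-K1, a class I heavy chain, Tap1, the peptide transporter, and Psmb9, an immunoproteasome subunit). Over all 2492 genes 21.1% were higher and 11.2% lower, so the MHC count lay near the share over all genes.

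**Figure D3:**
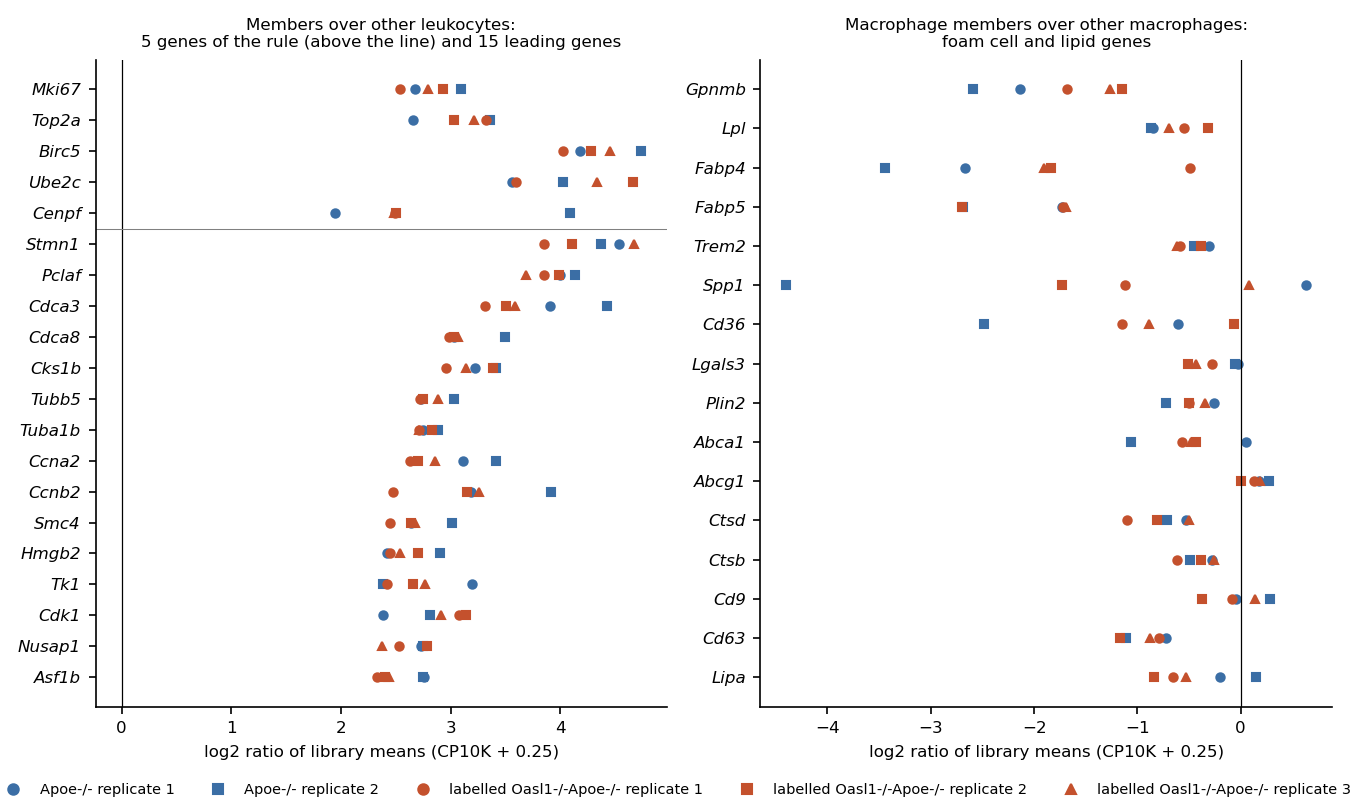
Log2 ratio of library mean levels (CP10K + 0.25), 1 point per library with the group by colour and the replicate by shape. On the left, cycling leukocytes over other leukocytes for the 5 genes of the rule and the 15 leading genes, all to the right of 0; on the right, cycling macrophages over other macrophages for the 16 foam cell and lipid genes, of which 11 lie to the left of 0 in every library.

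Between the groups, 12 of 2680 genes (0.448%) passed an adjusted p of 0.05 in the cycling leukocytes (limma on 1 mean per library, log2 of CP10K + 0.25, Benjamini-Hochberg over all genes tested), with 11 at a higher level under the label Oasl1-/-Apoe-/- (0.41%) and 1 at a lower level (0.0373%). At an unadjusted p under 0.05 there were 405. The count rests on single libraries: it was 390 without Apoe-/- replicate 1, 102 without Apoe-/- replicate 2, 2 without replicate 1 or replicate 2 of the libraries labelled Oasl1-/-Apoe-/-, and 0 without their replicate 3. In the other macrophages of the same libraries, which were far more numerous, 733 of 2289 genes (32%) passed. All values of one group lay beyond those of the other for 34% of genes in the cycling leukocytes (14.4% higher, 19.6% lower) and for 56.1% in the other macrophages (29% and 27.1%). The 12 genes are given in order of what they encode.

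Ifi27l2a, an interferon-induced mitochondrial protein gene on chromosome 12 (ENSMUSG00000079017), rose most. Its mean was 1.18 and 0.501 CP10K in the Apoe-/- libraries and 17.7, 18.6 and 19.98 CP10K in those labelled Oasl1-/-Apoe-/-, well apart. The log2 difference was 4.20 ± 0.27 (SE, limma, adjusted p = 0.0029), and in the other macrophages it was 2.82. Ly6a, which encodes the interferon-induced surface protein Sca-1, was at 1.58 and 0.831 against 11.5, 9.41 and 7.04 CP10K (log2 difference 2.74 ± 0.29, limma adjusted p = 0.0223). Ifitm3, an antiviral membrane protein gene, was at 2.55 and 3.12 against 13.9, 12.6 and 8.46 CP10K (1.93 ± 0.24, limma adjusted p = 0.0403). Phf11b, a gene of an interferon-induced family, had 0.189 and 0 CP10K against 1.56, 1.91 and 1.25 (2.44 ± 0.31, limma adjusted p = 0.0403), from 3 UMIs in the Apoe-/- group and 173 in the other. The groups were separate for each of these genes, but Phf11b was below the filter of 0.5 CP10K in the Apoe-/- group and was tested only through the group where it was high. With a filter of 0.05 CP10K, which it passed in both groups, its limma adjusted p was 0.0186.

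Genes of antigen presentation rose less in fold and from higher levels. B2m, the light chain of MHC class I on chromosome 2 (ENSMUSG00000060802), was at 45.5 and 45.5 CP10K in the Apoe-/- libraries and 94.3, 95.8 and 95.8 CP10K in those labelled Oasl1-/-Apoe-/-. Libraries within a group hardly differed, and the log2 difference was 1.06 ± 0.08 (SE, limma, adjusted p = 0.00314), beside 0.98 in the other macrophages. The class I heavy chain gene H2-D1 was at 21.2 and 18.8 against 35.0, 36.7 and 39.9 CP10K (0.89 ± 0.12, limma adjusted p = 0.0403).

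Of the genes outside these lists, Fgl2, a secreted or membrane-bound fibrinogen-like protein gene, was at 0.283 and 0.364 against 1.82, 2.70 and 1.47 CP10K (log2 difference 1.94 ± 0.27, limma adjusted p = 0.0403). It too passed the filter of 0.5 CP10K only through the higher group, and its limma adjusted p was 0.0332 with a filter of 0.05 CP10K and 0.0548 with none. The heat-shock chaperone gene Hspa1a was at 1.21 and 0.896 against 5.02, 7.26 and 4.06 CP10K (2.10 ± 0.27, limma adjusted p = 0.0403), and the stress-induced transcription factor gene Atf3 at 3.07 and 3.10 against 9.03, 6.81 and 7.62 CP10K (1.27 ± 0.18, limma adjusted p = 0.0403). Hspa1a and Atf3 are also known to respond to the handling of tissue. The one gene that fell was Tpt1, which encodes the translationally controlled tumour protein, at 38.2 and 46.2 against 22.7, 23.3 and 22.4 CP10K (-0.87 ± 0.12, limma adjusted p = 0.0403), and its difference in the other macrophages was -0.84.

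Plac8 and Il18bp differed in what stood behind the change. Plac8, a small cysteine-rich protein gene of monocytes and dendritic cells, rose from 0.104 and 0.0807 to 2.55, 6.81 and 3.35 CP10K (log2 difference 3.60 ± 0.38, limma adjusted p = 0.0223). Its 2 UMIs in the Apoe-/- group and 488 in the other came from 28 of the 138 cells, with 243 in the 6 dendritic cells and 203 in the cells with no lineage. In the cycling macrophages alone its levels were 0 and 0.121 against 0.471, 0.953 and 0.147 CP10K, and it did not reach the level needed for a test. Il18bp, the secreted binder of interleukin-18, rose from 0.0818 and 0.0807 to 1.05, 0.890 and 0.904 CP10K (1.85 ± 0.25, limma adjusted p = 0.0403), from 3 UMIs against 116. In the other macrophages it was at 2.70 and 2.57 against 2.36, 2.18 and 2.13 CP10K, a difference of -0.22 (limma adjusted p = 0.0364), so the groups were ordered the other way in the cells that did not cycle. Plac8 and Il18bp also passed the filter of 0.5 CP10K only through the group where they were high, which with Phf11b and Fgl2 makes 4 of the 12 genes, beside 209 of all 2680 tested. With a filter of 0.05 CP10K, Plac8 had a limma adjusted p of 0.00394 and Il18bp one of 0.0322, and with no filter Il18bp did not pass (limma adjusted p = 0.0548).

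**Figure D4:**
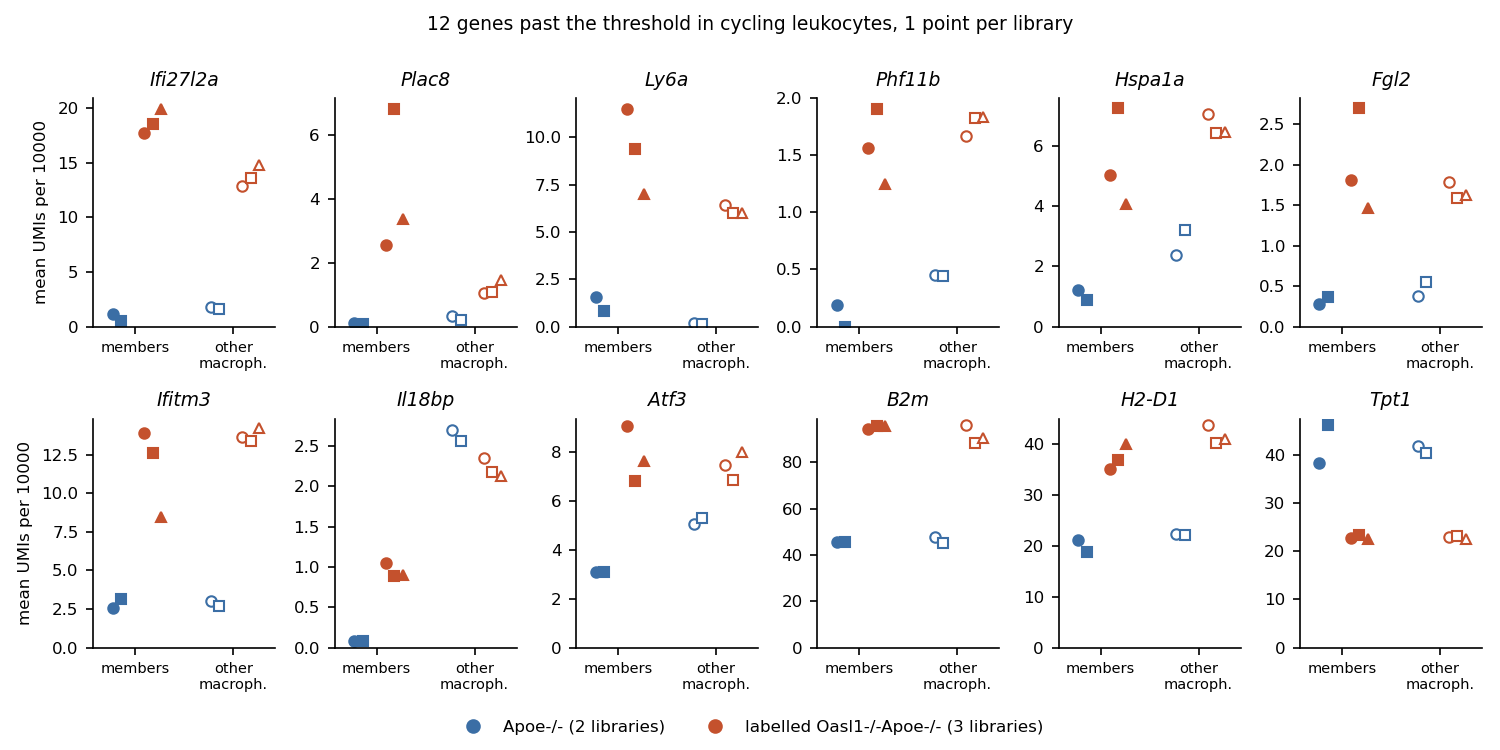
Mean level in UMIs per 10000 of the 12 genes past the threshold, 1 panel per gene, with 1 point per library in the cycling leukocytes (filled) and in the other macrophages (open). Orange points of the label Oasl1-/-Apoe-/- lie above the blue Apoe-/- points in the cycling cells for 11 genes and below them for Tpt1, and Il18bp is ordered oppositely in the other macrophages.

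A test of whether the group difference itself differed between cycling macrophages and other macrophages of the same libraries passed for 0 of 2131 genes (limma, 219 at an unadjusted p under 0.05, smallest adjusted p 0.358). Il18bp had a difference of 1.97 in the cycling macrophages and -0.22 in the others, which gives 2.20 ± 0.44 between them (limma adjusted p = 0.358), and Ifi27l2a had 4.54 and 2.82, which gives 1.72 (limma adjusted p = 0.358). Without Apoe-/- replicate 1 the count was 92. When the comparison of groups was run on the cycling macrophages alone, 11 genes passed, and 7 of the 12 were among them: Ifi27l2a, B2m, Ly6a, Fgl2, Phf11b, Il18bp and H2-D1. Ifitm3 (limma adjusted p = 0.0537), Tpt1 (0.0537), Hspa1a (0.0749) and Atf3 (0.0952) kept their direction there and did not pass.

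The wider interferon and MHC lists leaned one way without most members passing. Of 22 type I interferon genes, 11 were tested in the cycling leukocytes and 2 rose (Ifi27l2a and Ly6a). All 11 had a log2 difference above 0, beside 45.3% of all genes, and their median was 1.30 against -0.05 over all genes. The libraries of 10 did not overlap, beside 34% of all genes. Of these 11, however, 6 passed the filter only through the group where they were high, so their count and median are no support for the direction. Without a filter all 22 had a difference above 0, with a median of 1.14. The share of all genes above 0 without a filter was not determined, so this count has no background to be read against. The median of the 11 was 2.08 without Apoe-/- replicate 1, 1.096 without Apoe-/- replicate 2 and between 0.71 and 2.22 over all alternatives. In the other macrophages, where 51.6% of all genes were above 0 and 17.3% rose, 15 were tested and 15 rose, with a median of 1.34. Isg15, a ubiquitin-like interferon product, was at 0.961 and 0.363 against 2.39, 2.15 and 2.49 CP10K in the cycling cells (1.59, limma adjusted p = 0.104). Irf7, the interferon regulatory factor whose translation Oasl1 restrains, was at a difference of 1.30 (limma adjusted p = 0.291), and the chemokine gene Cxcl10 at 1.70 (0.263).

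Of 14 MHC genes 13 were tested and 2 rose (B2m and H2-D1), beside 0.41% of all genes. All 13 had a difference above 0, beside 45.3% of all genes, and the libraries of 12 did not overlap, beside 34%. The median was 1.06 in the cycling leukocytes (0.71 without Apoe-/- replicate 2) and 0.87 in the other macrophages. There 13 of 13 rose, beside 17.3% of all genes. Cd74, the invariant chain of class II, was at 82.9 and 20.3 against 153, 229 and 156 CP10K in the cycling cells. Its difference was 2.09 (limma adjusted p = 0.166), and the class II genes H2-Aa (1.86, limma adjusted p = 0.228) and H2-Ab1 (1.91, 0.255) also had wide errors. Apoe-/- replicate 2 was the lowest library for Cd74. Replicate 2 of the label Oasl1-/-Apoe-/- was the highest and held 5 of the 6 cycling dendritic cells, none of which came from an Apoe-/- library. H2-Ab1 was itself part of the dendritic cell rule. The part of the dendritic cells in these differences was not tested.

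**Figure D5:**
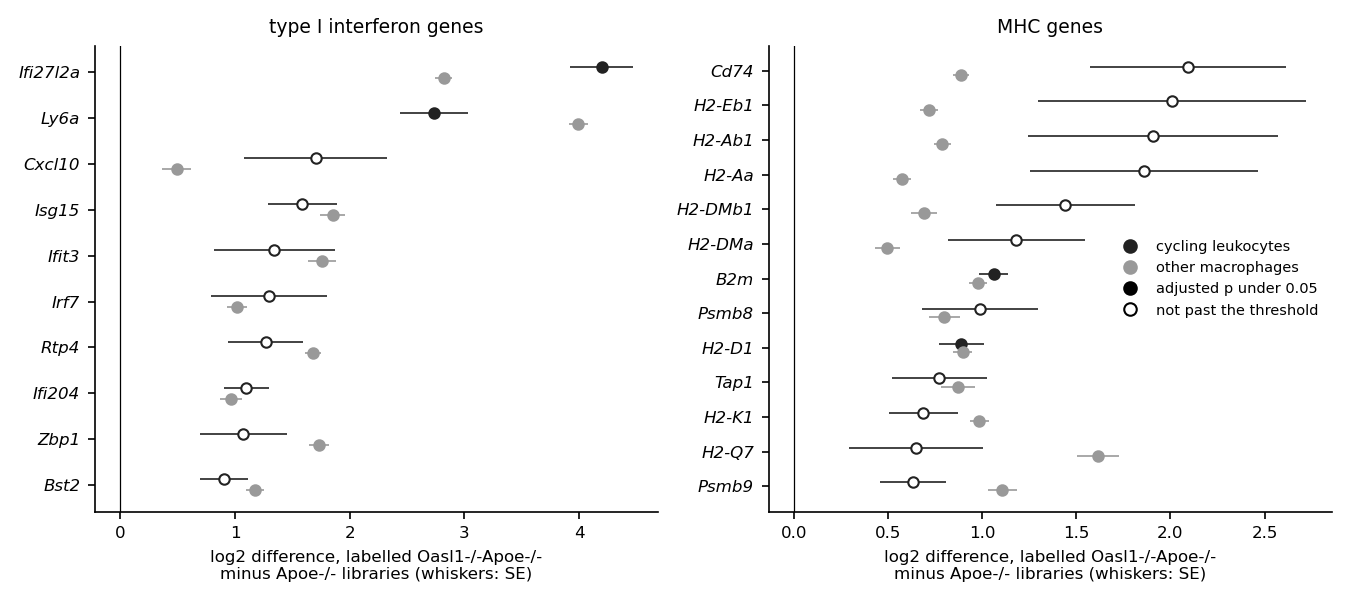
Log2 difference between libraries labelled Oasl1-/-Apoe-/- and Apoe-/- libraries (whiskers, SE) for 10 of the 11 type I interferon genes and the 13 MHC genes tested in cycling leukocytes (black) beside the other macrophages (grey). Filled points passed an adjusted p of 0.05, which 2 genes did in each panel in the cycling cells, and every point lies above 0.

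No cell cycle gene passed between the groups in the cells that cycled, but cells of both groups were chosen by mitotic genes. Over all genes 0.448% passed, so lists this short would mostly hold none at that share, and equal levels were not shown. None of 20 replication genes, 26 mitosis genes, 17 chromatin and tubulin genes and 4 genes of cell cycle entry passed (limma), and their median log2 differences were -0.05, -0.21, -0.02 and 0.35, where the median over all genes was -0.05. None of the 8 braking genes passed either, with a median of 0.22. Cdkn1a was the most separate of them, at 2.22 and 3.28 CP10K in the Apoe-/- libraries and 5.89, 5.51 and 6.01 in those labelled Oasl1-/-Apoe-/- (log2 difference 1.04, limma adjusted p = 0.109), and in the other macrophages the difference was 0.59. Of 15 foam cell and lipid genes none passed, with a median of -0.24. In the other macrophages 13 of 16 fell, beside 14.8% of all genes. None of 8 growth factor receptor and ligand genes and none of 8 macrophage markers passed.

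Markers of other cells differed between libraries, and some lists also separated the groups. Summed fibroblast markers in the cycling cells were at 0.608 and 42.0 CP10K in the Apoe-/- libraries and 14.0, 18.2 and 11.1 in those labelled Oasl1-/-Apoe-/-. Smooth muscle markers were at 7.96 and 52.6 against 15.4, 25.1 and 3.19 CP10K, with overlapping groups for both lists. Natural killer markers, at 7.70 and 29.2 against 2.36, 5.90 and 7.15 CP10K, and red cell markers, at 1.93 and 1.80 against 0.360, 0.428 and 0.596 CP10K, were higher in both Apoe-/- libraries. Monocyte markers, at 3.64 and 7.62 against 8.79, 14.7 and 8.82 CP10K, and B cell markers, at 0.724 and 0.134 against 0.991, 1.498 and 1.46 CP10K, were lower in both. The monocyte list includes Plac8, which had 243 UMIs in the 6 dendritic cells. Among single genes 34% did not overlap between the groups, so a separate list is no result about its markers. The part of other cell types in the group differences was not tested. Apoe-/- replicate 2, whose 9 cells include 3 with stromal transcripts and the cell with natural killer markers, was highest for fibroblast, smooth muscle and natural killer markers. Of the markers tested, none of 5 fibroblast, 6 smooth muscle, 5 T cell, 4 natural killer, 3 dendritic, 1 B cell and 1 red cell genes passed (limma), and 1 of 4 monocyte genes did, Plac8. Over all genes 0.448% passed, so lists this short would mostly hold none at that share. Without the 19 cells that held stromal markers, 21 genes passed in place of 12.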

How the data were processed

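Single cells from pooled aortic arches were measured by 3′ RNA sequencing (10x Genomics) in 5 libraries, 2 Apoe-/- and 3 labelled Oasl1-/-Apoe-/-. Per the study's methods and the submitters' processing notes, reads were mapped to mm10 with Cell Ranger 3.1.0, cells with few genes or a high mitochondrial share were removed in Seurat 4.0.3, and doublets were removed with DoubletFinder. The values deposited by the authors are the natural log of 1 plus UMIs per 10000 for 16498 genes and 18260 cells. UMIs were recovered from them, and 100% of values were whole within a tolerance of 0.01. No column of per-sample values was left unused.

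The cells, gene lists and comparisons were chosen with earlier results of these data known. Cells were selected on the deposited log values (the cut of 2 equals 6.39 UMIs per 10000), and shares were compared with a two-sided exact permutation test over 10 splits, with Benjamini-Hochberg adjustment over 9 comparisons. Because the values are normalised, gene levels were tested with limma 3.58.1 (R 4.3.3, moderated with a trend) on 1 mean per library as log2(CP10K + 0.25), where a gene averaged 0.5 CP10K or more across the libraries. Fold changes on this scale understate those of low genes. Named genes are those of the rule, list members past the threshold, the 10 largest differences in each direction that passed without overlap, and the 15 genes outside the rule with the largest ratio in the library where it is smallest; others given as examples were chosen after their values were seen. The planned test in cycling macrophages needed 10 cells in every library and was not run, since Apoe-/- replicate 2 held 6. A fit restricted to macrophages and a test of the difference between cycling and other macrophages were added after the data were seen. On simulated data for 2555 genes of the cycling leukocytes, limma recovered 62% of 100 genes changed 2-fold and 98% of 98 changed 4-fold, with 16 false calls. These false calls outnumber the 12 genes that passed in the data. The simulated cells were drawn from a single pooled profile, without the lineage mix and outlying libraries of the data, so recovery in the data may be lower. Alternatives covered the pseudocount, the filter, the scaling, summed UMIs, a replicate block, the number of cycle genes required, the leukocyte rule, stromal transcripts, thinning and each library left out. Scripts used Python 3.11.15, pandas 2.3.3, numpy 2.4.6, scipy 1.17.1 and matplotlib 3.10.9. Some genes counted in the lists are not reported here by name.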

Additional observations from a re-analysis of the deposited data

How the results depend on the processing

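The 12 genes past the threshold in cycling leukocytes became 3 with summed UMIs per 10000, 7 with no filter, 33 when at least 2 of the 5 cycle genes were required, and 21 in cells without stromal transcripts (chosen after seeing the data). Leaving out 1 library gave 0 to 390 in cycling leukocytes, 470 to 886 in the other macrophages (349 with a filter of 2 CP10K) and 0 to 92 for the difference between cycling and other macrophages. Each of the 12 genes kept its direction in every alternative that tested it. Ifi27l2a passed in 14 of 16, B2m in 13 of 16, Ly6a in 12 of 16 and Il18bp in 5 of 14. With a replicate block, 0 genes passed in cycling leukocytes and 458 in the other macrophages. Replicate numbers 1 and 2 occur in both groups, and the deviations of same-numbered libraries from their group means correlated at -0.00893 and 0.075. The deviations of the 2 Apoe-/- libraries mirror each other, so these values cannot tell whether same-numbered libraries shared a batch.

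The shares of cycling cells among all cells, leukocytes and macrophages kept their direction in all alternatives. Their differences with 1 library left out were 0.824 to 1.02, 1.62 to 2.14 and 1.66 to 2.60 percentage points. For dendritic cells the difference was 0.847 to 6.80 points with 1 library left out, but its direction was hardly tested. The Apoe-/- libraries held no cycling dendritic cell unless the rule was eased to at least 2 cycle genes. Without such a cell the difference could not turn negative. The share among T cells (-0.910 points) reversed with at least 4 cycle genes (0.576), with both leukocyte genes required (10.4) and when cells were thinned to 2000 (1.18) or 1000 UMIs (0.550), and ranged from -2.91 to 1.09 with 1 library left out. Among the cycling cells, the share of macrophages (5.17 points) reversed with both leukocyte genes (-5.26) and at 1000 UMIs (-10.7), that of T cells (-9.35) at 1000 UMIs (6.83), and that of cells with no lineage (-3.46) without cells holding stromal transcripts (3.66) and from -10.7 to 3.80 with 1 library left out. The cause of these changes was not tested. With 22 cycling cells in the Apoe-/- libraries, 4 of them T cells and none of them dendritic cells, the shares of these lineages were not measured closely enough to order the groups.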
